A study of Mus musculus with 8 samples.

Results

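Glucose transport and glycolysis genes were followed in blood monocytes (MCs) of 2 hyperglycaemic mouse models and of control mice. The members were chosen by symbol: 39 genes for glucose and lactate carriers, the enzymes of glycolysis and their regulators, pyruvate dehydrogenase and its kinases, the transcription factor gene Hif1a and 4 genes of the pentose phosphate pathway. All 39 were found among the 16486 genes of the table. RNA-seq was available for 8 libraries, in which CD11b+Ly6G- cells had been sorted into Ly6Chigh and Ly6Clow MCs. Control (CT) mice were C57/BL6 on normal chow and gave 2 libraries per subset. T1DM mice were C57/BL6 on normal chow that had received streptozotocin (STZ), a toxin of insulin-producing beta cells, in 5 daily intraperitoneal doses of 50 mg/kg starting at 8 weeks, and gave 1 library per subset. T2DM mice were db/db animals on normal chow, homozygous for a mutation of the leptin receptor, and also gave 1 library per subset. The mice were male and 20 to 22 weeks old, and the RNA of 5 mice was pooled in each group, so an animal-to-animal spread cannot be had. The sources describe sequencing of such a pool in duplicate, so the CT duplicates may be repeat libraries of 1 pool of mice. The paper counts 2 datasets for the diabetic groups too, whereas the data used here hold 1 library per diabetic subset. The p-values below then measure the spread between libraries, which may be technical. In the fits over all mouse groups, this spread also takes in any difference of the subset effect between mouse groups. The sequencer was a NextSeq 500 for CT and a HiSeq 4000 for the diabetic groups, so the effects of sequencer and diabetes cannot be told apart against CT, whereas T1DM and T2DM shared an instrument.

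Glucose enters leukocytes through facilitative carriers of the SLC2A family, is trapped by hexokinases, and is split in the cytosol to pyruvate, which is reduced to lactate or enters mitochondria through pyruvate dehydrogenase. Glucose-6-phosphate can leave for the pentose phosphate pathway, which makes NADPH and ribose. In myeloid cells, glycolysis is known to fuel inflammatory activation, and HIF-1α is a known inducer of many glycolytic genes. STZ mice are short of insulin, while db/db mice are obese and insulin resistant, so hyperglycaemia arises differently in the models.

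The deposited values were log2 expression per gene, and a value below is on that scale unless called a difference. The methods name gene counts and length-scaled TPM values as their basis but do not say which of them this table holds, so comparisons were made between libraries, and an order of levels between genes (such as most abundant) is on the deposited scale and may reflect gene length. The median over members of the mean value was 5.52, against 3.56 over all genes, and 31 of 39 members had a mean of at least 4. Between CT duplicates the members differed by a median of 0.178 in Ly6Chigh MCs and 0.176 in Ly6Clow MCs, with 3 members more than 2-fold apart (a difference above 1) in each subset. No read count was given per gene, so the depth behind a value is unknown.

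The sort labels were checked against markers before the metabolic genes were read. Ly6c2, the sort antigen's gene, was 8.61, 8.56, 8.72 and 8.58 in the Ly6Chigh libraries of CT 1, CT 2, T1DM and T2DM, and 4.07, 2.69, 3.20 and 3.53 in the Ly6Clow libraries in the same order. Of 8 classical MC markers, 7 were called higher in Ly6Chigh MCs over all mouse groups. Of 12 nonclassical markers, 7 were called lower there, among them Cd300e, Treml4 and Spn. All 8 pan-monocyte markers passed the adjusted p with higher values in Ly6Chigh MCs, and Lyz2, the most abundant, was called. Itgal, the most abundant gene of the nonclassical list, and Nr4a1, Cx3cr1 and Cebpb were not higher in the CT Ly6Clow libraries than in the CT Ly6Chigh libraries. Cx3cr1, for example, was 8.59 and 8.61 in CT Ly6Chigh MCs and 7.76 and 7.78 in CT Ly6Clow MCs.

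Marker genes of other blood cells differed in level between the libraries. Markers were summed as 2 to the power of their values. The 14 of 14 B cell markers, most abundant Ighm, summed to 513 and 492 in the CT, 724 in the T1DM and 339 in the T2DM Ly6Chigh libraries, and to 6027, 6079, 7004 and 7314 in the Ly6Clow libraries. The 10 of 10 NK markers, most abundant Gzma, summed to 104, 108, 141 and 30.2 in Ly6Chigh MCs of CT 1, CT 2, T1DM and T2DM, and to 724, 725, 1020 and 196 in Ly6Clow MCs. B cell and NK genes were thus higher in every Ly6Clow library, and NK genes were lowest in T2DM within each subset. The 9 of 9 platelet markers, most abundant Ppbp, reached 856 and 920 in the T1DM libraries, 230.6 and 266 in the T2DM libraries and 397 to 529 in CT. The 7 measured of 9 erythroid markers, most abundant Hbb-bs, reached 38050 and 31480 in T1DM, 16630 and 16540 in T2DM and 20490 to 24230 in CT. Neutrophil markers (10 measured of 14; most abundant Csf3r; Ly6g, Elane, Camp and Stfa2l1 have no row) summed to 1695 in T2DM Ly6Chigh MCs and 591 to 636 in the other Ly6Chigh libraries, and to 321 in T2DM Ly6Clow MCs and 152 to 164 in the other Ly6Clow libraries. These sums were thus higher in Ly6Chigh MCs, and highest in T2DM within each subset. The genes of the neutrophil list did not all go this way. Over all mouse groups 2 of 10, Mmp8 and Csf3r, were called higher in Ly6Chigh MCs, beside 12.1% of all genes, and 7 of 10 had a positive log2FC. In CT mice 5 of 10 were positive, and S100a9 (-1.39) and Ltf (-2.31) were among those lower. The classical MC markers themselves, most abundant Fn1, summed to 28020 in T2DM Ly6Chigh MCs and 13590 in T1DM Ly6Chigh MCs. The T cell list (13 of 13 measured, most abundant Cd247) summed to 37.1 to 107, the eosinophil list (5 of 8, Il5ra) to 11.8 to 107, the dendritic cell list (8 of 9, Cd209a) to 74.0 to 229 and the cycling cell list (10 of 10, Pcna) to 186 to 312 over the 8 libraries, and the nonclassical list (12 of 12, Itgal) to 1445 to 4235. In bulk libraries, more cells of a type, more RNA per cell and expression of a marker by the MCs themselves cannot be told apart. Csf3r, for example, is among the genes the paper reports as higher in Ly6Chigh MCs. The part of these cells in the metabolic differences below was not tested.

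**Figure D1:**
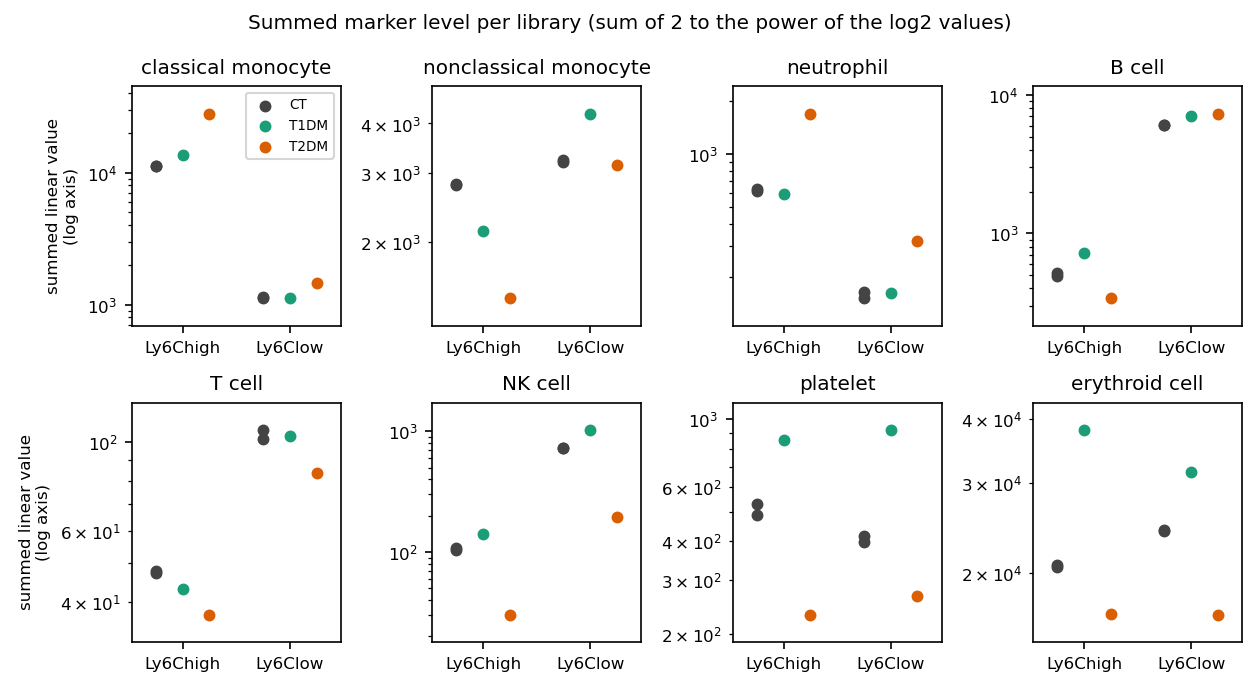
Summed linear level of 8 marker lists in each library, by subset (x axis) and mouse group (colour), on a log axis whose range differs between panels; each point is 1 library. B cell and NK sums are higher in the Ly6Clow libraries, and platelet and erythroid sums are highest in T1DM and lowest in T2DM.

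The question of the first comparison was how the MC subsets differ in glucose metabolism. Across all mouse groups, 9 of 39 members were called, at an adjusted p below 0.01 and more than 2-fold apart by limma, beside 12.1% of all genes. Higher in Ly6Chigh MCs were Ldhb, Pgd, Pfkm, Hk2, Taldo1, G6pdx and Pkm, and lower were Eno3 and Slc2a3. At an adjusted p below 0.01 of any size, 20 of 39 passed, 18 higher and 2 lower, beside 20.3% of all genes. Among the 7385 genes averaging 4 or more, a cut chosen after seeing the data, 7 of 31 members were called, against 974 genes (13.2%), and 18 of 31 members passed the adjusted p, against 2490 of the 7385 genes. The median log2FC over those genes was 0.14, and over those members 0.65. The median log2FC (Ly6Chigh minus Ly6Clow) over the members was 0.48, against -0.08 over all genes. With quantile normalization these medians were 0.44 and 0.04, and the log2FCs of G6pdx (0.92) and Pkm (0.85) were under 2-fold. In 18 of 39 members all 4 Ly6Chigh libraries lay above all 4 Ly6Clow libraries, beside 16.4% of all genes, and in 4 of 39 all lay below, beside 16.3%.

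**Figure D2:**
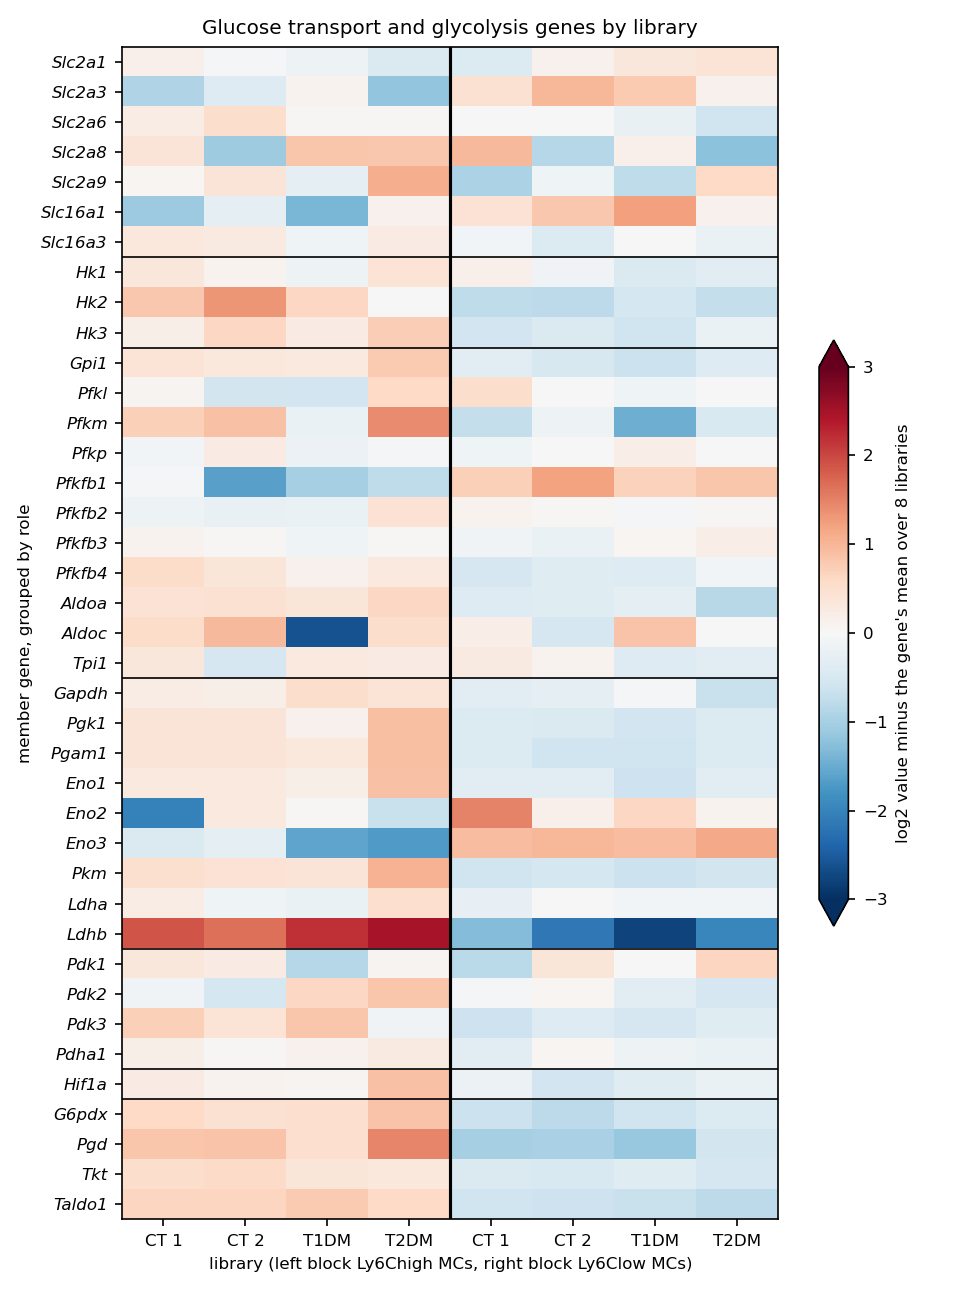
Log2 value of each of 39 members minus its own mean over 8 libraries (colour), with Ly6Chigh libraries left and Ly6Clow libraries right of the thick line and rows grouped by role. Ldhb has the widest contrast between subsets, Eno3 the opposite one, and the pentose phosphate rows at the bottom are higher in every Ly6Chigh library.

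The pentose phosphate genes were the one role group of several genes in which every member passed an adjusted p below 0.01. Pgd, which encodes the second NADPH-forming enzyme of the pathway, was 8.24, 8.28, 7.92 and 8.87 in the Ly6Chigh libraries of CT 1, CT 2, T1DM and T2DM, and 6.43, 6.44, 6.28 and 6.86 in the Ly6Clow libraries. The subsets did not overlap. The log2FC was 1.82 ± 0.0889 (SE, 4 against 4 libraries), a 3.54-fold difference, with an adjusted p of 2.72e-06 from limma. G6pdx, the gene of the first and committing enzyme, differed by 1.21 ± 0.0798, Taldo1 (transaldolase) by 1.34 ± 0.0893 and Tkt (transketolase) by 0.88 ± 0.0897, the last below 2-fold. All 4 Ly6Chigh libraries lay above all Ly6Clow libraries for each of these 3 genes too. G6pdx shares 23.6% of its 31-base sequences with another annotated gene, most with the retrogene G6pd2, so its reads may be split; Pgd shares 1.83%.

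Lower glycolysis and the lactate dehydrogenases held the largest contrasts. Ldhb, the heart-type lactate dehydrogenase subunit, was 4.36, 4.12, 4.67 and 4.95 in the Ly6Chigh libraries and 1.18, 0.33, -0.30 and 0.53 in the Ly6Clow libraries of CT 1, CT 2, T1DM and T2DM. The log2FC was 4.09 ± 0.343, with an adjusted p of 4.27e-05 from limma. Ldha, the muscle-type subunit, was 7.75, 7.42, 7.33 and 8.03 in the Ly6Chigh libraries and 7.30, 7.55, 7.44 and 7.46 in the Ly6Clow libraries, which overlapped, and its log2FC was 0.19 ± 0.132 with an adjusted p of 0.301. Eno3, the muscle-type enolase, ran the other way at 4.84, 5.02, 3.71 and 3.59 in Ly6Chigh MCs and 6.22, 6.27, 6.21 and 6.42 in Ly6Clow MCs. It was lower in Ly6Chigh MCs by a log2FC of -1.99 ± 0.258, with an adjusted p of 0.000476 from limma. Eno1, the enolase common to most tissues, was by contrast higher in Ly6Chigh MCs (log2FC 0.81 ± 0.103), and Eno2, the neuronal form, was between -2.67 and 0.86 in all libraries and did not pass.

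Other enzymes of lower glycolysis were higher in Ly6Chigh MCs by about 2-fold or less. Pkm, which encodes muscle-type pyruvate kinase, was 9.09, 9.05, 9.01 and 9.66 in Ly6Chigh MCs and 8.01, 8.08, 7.97 and 8.07 in Ly6Clow MCs, a log2FC of 1.17 ± 0.106. Pgam1 (phosphoglycerate mutase) differed by 1.00 ± 0.103, Pgk1 (phosphoglycerate kinase) by 0.90 ± 0.117 and Gapdh by 0.66 ± 0.102, and each passed the adjusted p without passing 2-fold. Their Ly6Chigh and Ly6Clow libraries did not overlap. Near-identical copies leave these enzymes less certain, since Pgk1 shares 54.7% of its 31-base sequences with other genes, Pgam1 37.1%, Pkm 34.7%, Ldhb 33.0%, Eno1 28.5% and Gapdh 28.1%. Eno3 shares 0.0%. The copy with most in common with Eno1, Eno1b, was 4.55, 4.03, 3.91 and 4.43 in Ly6Chigh MCs and 3.60, 3.39, 2.37 and 2.88 in Ly6Clow MCs, higher in Ly6Chigh MCs like Eno1 itself. Gm7336, the copy with most in common with Gapdh, was 5.22, 6.86, 6.73 and 6.85 in Ly6Chigh MCs and 5.90, 6.48, 6.62 and 6.28 in Ly6Clow MCs, where the subsets overlapped.

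Of 7 carriers, 1 was called between subsets, and of 3 hexokinases, 1, beside 12.1% of all genes. Slc2a3, which encodes the high-affinity glucose carrier GLUT3, was 4.90, 5.39, 5.89 and 4.61 in Ly6Chigh MCs and 6.26, 6.78, 6.59 and 5.92 in Ly6Clow MCs. Every Ly6Chigh library lay below every Ly6Clow library, and the log2FC was -1.19 ± 0.184 with an adjusted p of 0.00127 from limma. Slc2a1 (GLUT1) overlapped between subsets, with a log2FC of -0.25 ± 0.208. Slc16a1 (the monocarboxylate carrier MCT1) had a log2FC of -1.31 ± 0.432 and an adjusted p of 0.0464, and Slc16a3 (the lactate exporter MCT4) one of 0.35 ± 0.153 and an adjusted p of 0.116. Hk2, the inducible hexokinase, was 6.35, 6.86, 6.16 and 5.55 in Ly6Chigh MCs and 4.78, 4.76, 5.02 and 4.82 in Ly6Clow MCs. The log2FC of Hk2 was 1.39 ± 0.209, or 2.61-fold, with an adjusted p of 0.00112 from limma. The calls of Hk2 and Slc2a3 were lost with eBayes without trend. Hk3, a hexokinase of myeloid cells, was higher by 0.90 ± 0.144 and Hk1, the housekeeping form, had a log2FC of 0.36 ± 0.142 with an adjusted p of 0.0861.

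In upper glycolysis, 4 of 11 members passed the adjusted p, all higher in Ly6Chigh MCs, beside 20.3% of all genes. Pfkm, the muscle-type phosphofructokinase, was the one past 2-fold (log2FC 1.39 ± 0.299), at low values of 0.15 to 3.02, and its call was lost when any single library was left out, with adjusted p between 0.0120 and 0.0335. Pfkl and Pfkp, the other phosphofructokinases, had log2FCs of -0.21 and -0.03. Gpi1 (glucose-6-phosphate isomerase) differed by 0.91, Aldoa (aldolase A) by 0.94 and Pfkfb4, which sets the level of the activator fructose-2,6-bisphosphate, by 0.67. Pfkfb3, the inducible member of that family, had a log2FC of 0.02 ± 0.116, and Tpi1 (triosephosphate isomerase) one of 0.18 ± 0.236. Pfkfb1 was past 2-fold but missed the adjusted p (log2FC -1.72, adjusted p 0.0114). Of the regulators, Pdk3, an inhibitory kinase of pyruvate dehydrogenase, was higher by 0.93 ± 0.209 and Hif1a, the oxygen-regulated subunit of HIF-1, by 0.65 ± 0.137. Pdk1, Pdk2 and Pdha1, the catalytic subunit gene of pyruvate dehydrogenase, had log2FCs of -0.09, 0.41 and 0.32 and did not pass.

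**Figure D3:**
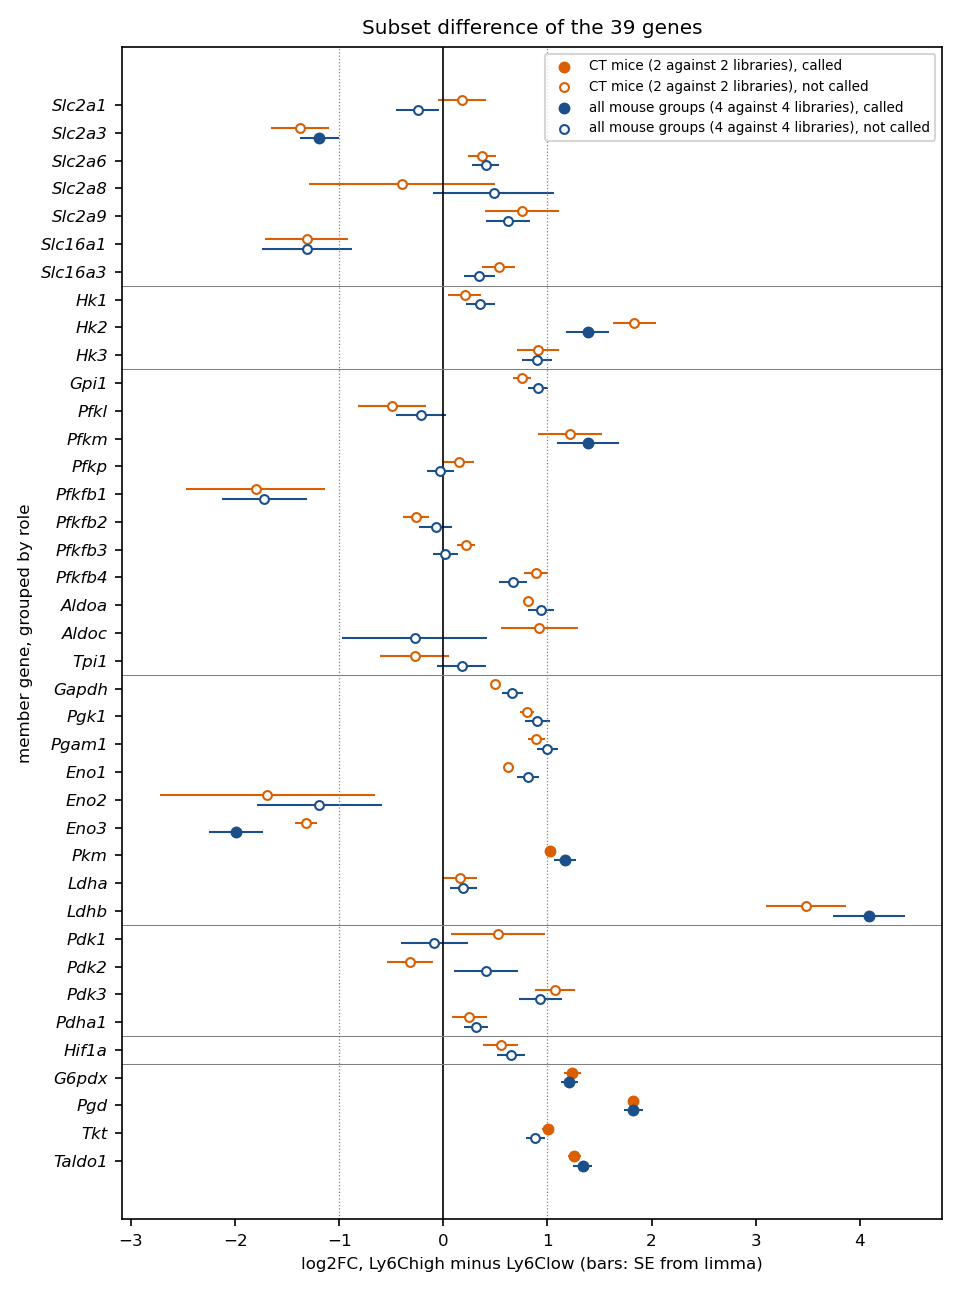
Log2FC of each member, Ly6Chigh minus Ly6Clow, in CT mice (orange, 2 against 2 libraries) and over all mouse groups (blue, 4 against 4 libraries), with bars for the SE and filled points for called genes. Dotted lines mark 2-fold; Ldhb lies farthest right at 4.09, and Eno3, at -1.99 over all groups, lies left of its CT value.

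Within CT mice alone, which shared a sequencer, 5 of 39 members were called, all higher in Ly6Chigh MCs, beside 3.52% of all genes. They were Pgd (1.82 ± 0.0530), Taldo1 (1.26 ± 0.0628), G6pdx (1.24 ± 0.0860), Pkm (1.02 ± 0.0469) and Tkt (1.00 ± 0.0560), each an SE from limma with 2 against 2 libraries. At an adjusted p below 0.01 of any size, 8 of 39 passed, beside 4.54% of all genes, the others being Aldoa, Eno1 and Gapdh. Eno3 (-1.32, adjusted p 0.0101), Ldhb (3.48, adjusted p 0.0163) and Hk2 (1.83, adjusted p 0.0167) missed the threshold. With quantile normalization 4 members were called higher and 1 lower, beside 4.2% of all genes. With eBayes without trend 0 members and 0 genes of the whole table were called. There 20 members had an unadjusted limma p below 0.05, beside 35.2% of all genes. Leaving out any of the 4 CT libraries left 0 members called and 0 genes of the whole table, with 18 to 20 members at an unadjusted limma p below 0.05, beside 28.2% to 31.8% of all genes. In those fits the lone library of a subset is assumed to vary like the other subset. In the diabetic libraries the difference between subsets was 1.63 for Pgd in T1DM and 2.02 in T2DM, 1.15 and 0.73 for Hk2, 4.97 and 4.42 for Ldhb, -2.50 and -2.83 for Eno3, and -0.70 and -1.31 for Slc2a3. These 5 genes had the same direction in each mouse group.

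Promoter sequence is shown for the members with the largest called contrasts in each direction, Ldhb and Eno3, and for Hk2, a called member with the core of the hypoxia response element upstream of its start. The core was searched as ACGTG on both strands (CACGT when read on the gene's strand from the other). Its other form, GCGTG, was not searched, so a match below means ACGTG alone. Sequences are the RefSeq windows of GRCm38.p6 (the mm10 build), cut to the 250 bases before the start and written 5′ to 3′ on the gene's strand, with each core match in capitals. Ldhb lies at chr6:142507958-142508207 on the minus strand, Eno3 at chr11:70656926-70657175 on the plus strand and Hk2 at chr6:82774455-82774704 on the minus strand.
Ldhb: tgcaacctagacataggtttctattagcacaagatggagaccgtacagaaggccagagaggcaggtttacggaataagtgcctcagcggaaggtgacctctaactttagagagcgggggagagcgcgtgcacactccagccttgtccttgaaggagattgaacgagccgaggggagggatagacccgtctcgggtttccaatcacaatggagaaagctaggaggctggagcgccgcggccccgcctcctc
Eno3: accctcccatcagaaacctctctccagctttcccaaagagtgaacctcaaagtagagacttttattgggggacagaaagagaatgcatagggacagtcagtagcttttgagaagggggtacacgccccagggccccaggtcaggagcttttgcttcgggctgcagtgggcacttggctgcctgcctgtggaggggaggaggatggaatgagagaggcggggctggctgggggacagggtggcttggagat
Hk2: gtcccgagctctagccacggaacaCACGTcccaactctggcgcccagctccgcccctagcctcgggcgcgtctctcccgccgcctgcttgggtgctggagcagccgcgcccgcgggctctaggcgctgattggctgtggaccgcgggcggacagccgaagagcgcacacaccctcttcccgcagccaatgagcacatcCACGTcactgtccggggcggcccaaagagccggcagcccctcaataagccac

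Hk2 held 2 matches of ACGTG in this stretch, and Ldhb and Eno3 held 0. The printed Ldhb stretch does hold GCGTG, and that of Eno3 its reverse complement CACGC. Windows of 300 bases around the start were found for 38 of 39 members. ACGTG was present in 20 of these 38 (52.6%), against 21.8% of all genes with a window. The E-box CACGTG, which contains ACGTG, was present in 7 of 38 (18.4%) against 8.09%. The background is the 27025 genes with a window, more than the 16486 measured here. It was not matched to the members for expression level or base content, so the gap cannot be ascribed to the members' role. The members called over all groups were divided, with an ACGTG match in the windows of Hk2, Pfkm, Pkm and G6pdx. None was found in those of Ldhb, Eno3, Pgd and Taldo1, and Slc2a3 is not counted. A match describes letters and is not evidence of binding.

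The hyperglycaemic models were then compared with each other. Over both subsets, 0 of 39 members were called between T2DM and T1DM by limma, beside 0.588% of all genes. At an unadjusted limma p below 0.05, 12 of 39 members passed, 10 of them higher in T2DM, beside 14.3% of all genes. This count was 5 in the 4 diabetic libraries alone (9.56% of all genes) and 4 with eBayes without trend (12.1%). The members' median log2FC was 0.21, against 0.00 over all genes. It fell to 0.16 without the T1DM Ly6Chigh library and to 0.11 without the T2DM Ly6Chigh library. Without the T1DM Ly6Clow library it rose to 0.34, as it did without the T2DM Ly6Clow library. Each of these fits left 1 library in a model. Pgd came nearest, with a log2FC (T2DM minus T1DM) of 0.77 ± 0.126 and an adjusted p of 0.0207 from limma, and was higher in T2DM in both subsets. Its T2DM value of 8.87 was the highest of the Ly6Chigh libraries and its T1DM value of 7.92 the lowest, and in Ly6Clow MCs 6.86 and 6.28 held the same places. Slc2a9, which encodes the urate carrier GLUT9, was 5.33 in T2DM and 3.96 in T1DM Ly6Chigh MCs and 4.85 and 3.48 in Ly6Clow MCs, with CT at 4.30 and 4.64 and at 3.30 and 4.12. Its log2FC was 1.37 ± 0.297 with an adjusted p of 0.0604 from limma. Slc2a3 was lower in T2DM in both subsets at -0.97 ± 0.260, with an adjusted p of 0.123 from limma, so that GLUT3 and GLUT9 transcripts differed between models in opposite directions without either passing.

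**Figure D4:**
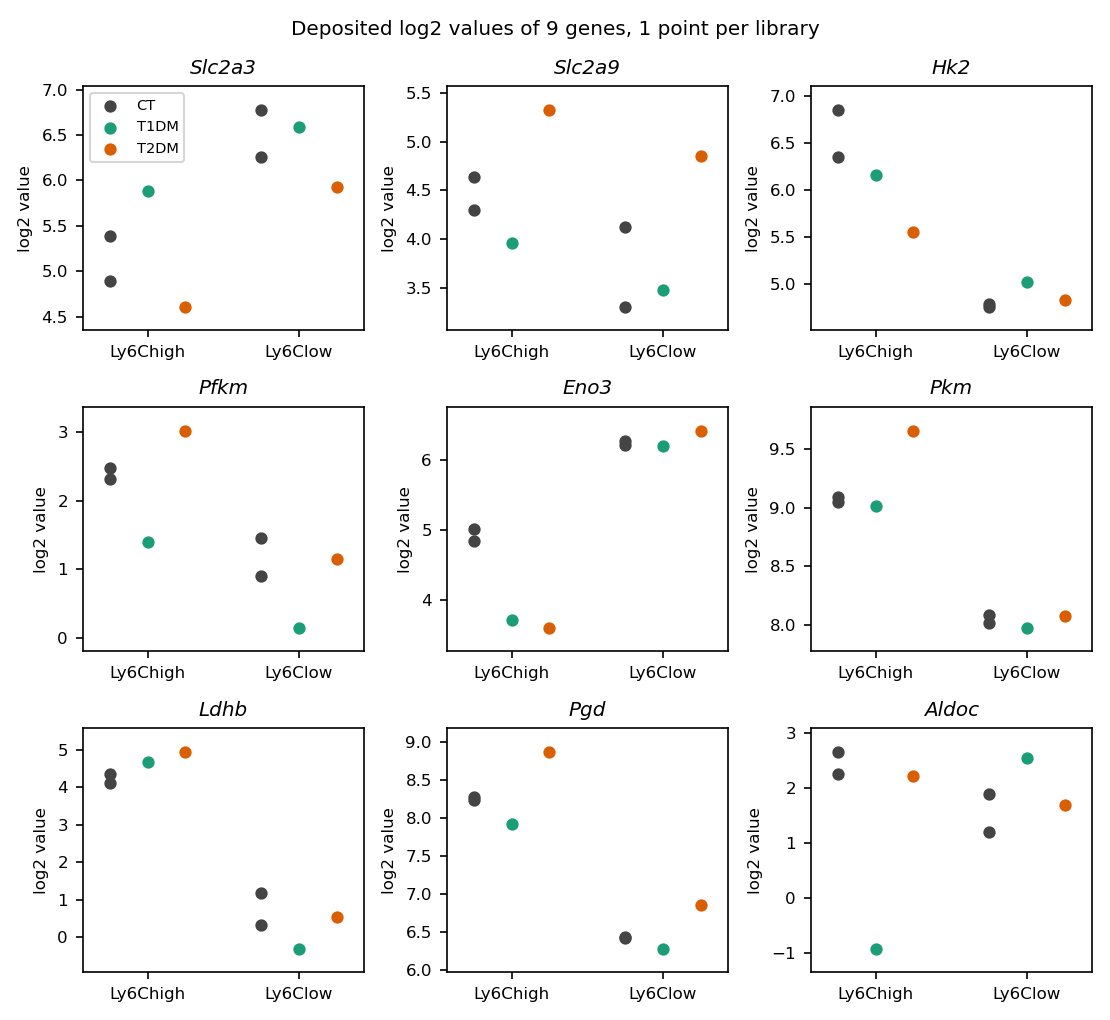
Deposited log2 values of 9 members, 1 point per library, by subset (x axis) and mouse group (colour); the y range differs between panels. Pgd and Slc2a9 are highest in T2DM within each subset, Slc2a3 is lowest there, and the single low Aldoc point of -0.93 is the T1DM Ly6Chigh library.

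With 1 library per model and subset no test was made within a subset, and differences are given as values. In Ly6Chigh MCs, 6 of 39 members were more than 2-fold apart between T2DM and T1DM, 5 higher and 1 lower in T2DM, beside 19.3% of all genes. Higher in T2DM were Aldoc by 3.16, Pfkm by 1.62, Slc16a1 by 1.51, Slc2a9 by 1.37 and Pfkl by 1.16, and Slc2a3 differed by -1.28. The Aldoc difference rests on its T1DM value of -0.93, since the other Ly6Chigh libraries were at 2.25, 2.67 and 2.23. In Ly6Clow MCs, 3 of 39 members were past 2-fold, beside 15.3% of all genes: Slc2a9 at 1.38, Slc2a8 at -1.38 and Slc16a1 at -1.09. Slc16a1 and Aldoc thus took opposite signs in the 2 subsets. Neither count stands above its background on the deposited scale. With 1 added on the linear scale, which damps low values, the counts were 6 of 39 in Ly6Chigh MCs, beside 9.89% of all genes, and 1 of 39 in Ly6Clow MCs, beside 7.90%.

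Smaller differences ran mostly one way in Ly6Chigh MCs. There, 28 of 39 members were higher in T2DM than in T1DM, against 49.2% of all genes, with a median difference of 0.28 against 0.00. In Ly6Clow MCs 24 of 39 were higher, against 50.1% of all genes, with a median of 0.10 against 0.00. Among lower glycolysis genes, Pgk1 was higher by 0.75, Ldha by 0.70, Eno1 by 0.69, Pkm by 0.64 and Pgam1 by 0.59 in T2DM Ly6Chigh MCs, while the same genes differed by 0.17, 0.02, 0.31, 0.10 and 0.18 in Ly6Clow MCs. CT duplicates of Ly6Chigh MCs differed by 0.34 for Ldha and by less for the other 4 genes. Hif1a was 7.78 in T2DM Ly6Chigh MCs and 6.97 in T1DM Ly6Chigh MCs, beside 7.14 and 7.01 in CT. Lower in T2DM Ly6Chigh MCs were 11 of 39, led by Slc2a3 (-1.28), Pdk3 (-0.93), Eno2 (-0.71) and Hk2 (-0.61). The others were Slc2a1, Taldo1, Gapdh, Eno3, Tpi1, Tkt and Slc2a8, between -0.27 and -0.02. Whether the subsets differ in their T2DM minus T1DM difference was not tested. The T2DM library of each subset also had the highest classical MC and neutrophil marker sums and the lowest NK sum of that subset, and their part in these values was not tested.

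**Figure D5:**
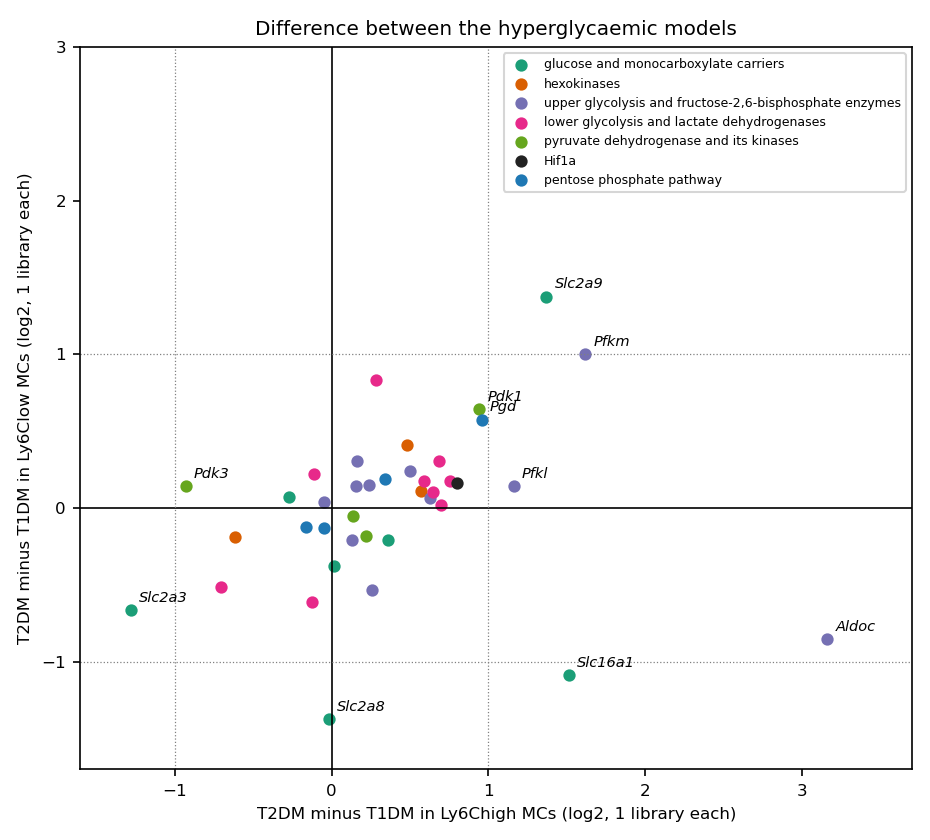
Difference between T2DM and T1DM (log2) of each member in Ly6Chigh MCs (x axis) and in Ly6Clow MCs (y axis), 1 library per model and subset, coloured by role, with dotted lines at 2-fold. Most points lie right of 0, with Slc2a9 at 1.37 and 1.38, and Aldoc and Slc16a1 in the lower right.

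Comparison with CT mice was limited by the values themselves. Diabetic and CT libraries, run on different sequencers, never held an equal value for a gene, whereas 919 genes had an equal value in 2 or more CT libraries and 504 in 2 or more diabetic libraries. For 119 genes all 4 CT libraries held 1 value, which took 118 different levels from gene to gene. The mean of the diabetic libraries lay a median of 0.120 from the mean of the CT libraries over all genes. This median was 0.200 between CT replicates 1 and 2 and 0.307 between T2DM and T1DM. The first averages more libraries on each side than the others, which by itself lessens it, so the sizes cannot be compared directly. Whether the values were centred on each sequencer's libraries is not given in the sources used here and was not tested. Differences from CT are therefore given as values of these libraries.

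Over both subsets, 0 of 39 members were called between diabetic and CT mice by limma, beside 0.0% of all genes. At an unadjusted p below 0.05, 2 of 39 passed, Eno3 and Slc2a6, beside 2.43% of all genes. That count was 8 without the T2DM Ly6Clow library (5.82% of all genes) and 1 without CT Ly6Chigh replicate 2 or without the T1DM Ly6Chigh library. Slc2a6, a carrier gene of the SLC2A family expressed in myeloid cells, read 5.55 and 5.84 in the CT Ly6Chigh libraries, 5.35 in the T1DM and 5.36 in the T2DM one. In Ly6Clow MCs the CT libraries read 5.32 and 5.32, T1DM 5.10 and T2DM 4.72. It was the 1 member of 39 with every diabetic library on the same side of both CT libraries of its subset, a pattern of 2.31% of all genes. For the difference of the subset effect between diabetic and CT mice, 0 of 39 members were called by limma, beside 0.0% of all genes, and 5 of 39 had an unadjusted limma p below 0.05, beside 6.58%. These were Eno3, Hk2, Pdk2, Slc2a1 and Tpi1. Leaving out 1 library moved the count of 5 in either direction. It rose without the T1DM Ly6Chigh library, where the share of all genes rose too. It fell without CT Ly6Chigh replicate 2, the T2DM Ly6Clow library or CT Ly6Clow replicate 1. Each of these fits left 1 library in a group. Eno3 was 3.71 and 3.59 in diabetic against 4.84 and 5.02 in CT Ly6Chigh MCs, and the nonclassical marker Cd300e moved with it, at 2.46 and 1.64 against 3.29 and 3.54. The part of nonclassical MCs in the Eno3 values was not tested.

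Against CT, T1DM Ly6Chigh MCs had 4 of 39 members past 2-fold, beside 10.1% of all genes, and T1DM Ly6Clow MCs 3 of 39, beside 8.81%. T2DM Ly6Chigh MCs had 4 of 39, beside 13.8%, and T2DM Ly6Clow MCs 2 of 39, beside 10.8%. With 1 added on the linear scale the Ly6Chigh counts were 3 of 39 for T1DM, beside 2.61% of all genes, and 3 of 39 for T2DM, beside 5.80%. Both models were compared with the same CT libraries. In T1DM Ly6Chigh MCs these were Aldoc (-3.39), Eno3 (-1.22), Slc2a8 (1.17) and Pdk1 (-1.14), and in T2DM Ly6Chigh MCs Eno3 (-1.33), Slc2a8 (1.15), Pdk2 (1.14) and Hk2 (-1.05). Slc2a8, the gene of the intracellular carrier GLUT8, was 2.29 and 0.85 in CT Ly6Chigh MCs, so that its difference is of the size of the spread between CT duplicates. The count in T1DM Ly6Chigh MCs was 7 without CT Ly6Chigh replicate 1, beside 13.2% of all genes. In Ly6Clow MCs, Ldhb (-1.06), Pfkm (-1.03) and Aldoc (1.01) in T1DM and Slc2a8 (-1.29) and Slc2a9 (1.14) in T2DM were past 2-fold. The T1DM Ly6Clow count was 1 without CT Ly6Clow replicate 2, beside 11.2% of all genes. The T2DM Ly6Clow count was 0 without CT Ly6Clow replicate 1, beside 12.8%, and 4 without replicate 2, beside 13.3%.

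Neighbouring pathways were read from 7 lists of other genes. Between T2DM and T1DM, 0 genes of the 7 lists were called by limma. Of 14 measured gluconeogenesis and glycogen genes, 3 were called higher in Ly6Chigh MCs over all mouse groups and 1 lower, to be read, like the list counts that follow, beside the 12.1% of all genes called. Pygl, the liver-type glycogen phosphorylase, was 7.93, 7.86, 7.55 and 8.43 in Ly6Chigh MCs and 6.55, 6.26, 6.56 and 6.67 in Ly6Clow MCs, a log2FC of 1.43 ± 0.132. Gyg, the glycogenin that primes glycogen, differed by 1.67 ± 0.134 and Pgm2, a phosphoglucomutase family gene, by 1.33 ± 0.149. Pygm, the muscle-type phosphorylase, was lower by a log2FC of -1.93 ± 0.319, so that liver and muscle forms of this enzyme differed in opposite directions. Of 9 measured polyol and hexosamine genes, Khk (ketohexokinase, 1.78 ± 0.189) and Sord (sorbitol dehydrogenase, 1.20 ± 0.254) were called higher, and of 12 other carriers and isozymes Galm (galactose mutarotase, 2.31 ± 0.355). Of 7 other pentose phosphate enzymes Prps2, which makes phosphoribosyl pyrophosphate, was called lower at -1.42 ± 0.160.

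Of 27 citric acid cycle and pyruvate entry genes, 9 passed the adjusted p over all mouse groups, 8 higher and 1 lower in Ly6Chigh MCs, beside 20.3% of all genes. Sdhd, a membrane anchor of succinate dehydrogenase, was past 2-fold at 1.04 ± 0.115. Sdhb, the iron-sulfur subunit of the same enzyme, was 5.57, 5.44, 5.16 and 6.06 in Ly6Chigh MCs and 4.59, 4.53, 4.40 and 5.28 in Ly6Clow MCs of CT 1, CT 2, T1DM and T2DM, and was highest in T2DM within each subset. Of 23 HIF regulators and hypoxia targets outside glycolysis, Ndrg1 (2.28 ± 0.190) was called higher and Ddit4 (-1.30 ± 0.196) and Bhlhe40 (-1.55 ± 0.215) lower in Ly6Chigh MCs, 3 of 23 beside 12.1% of all genes. The median log2FC of the list was -0.08, beside -0.08 over all genes. Among 5 genes of the glucose-sensing MondoA and ChREBP axis, Arrdc4, a target of these factors, was 6.36, 6.15, 6.87 and 6.83 in Ly6Chigh MCs and 3.71, 3.90, 3.94 and 4.34 in Ly6Clow MCs, a log2FC of 2.58 ± 0.137. It was also called in CT mice alone. Txnip, the other well known target, differed by 0.41 ± 0.0848, below 2-fold. The hexosamine genes Ogt and Gfpt1, the polyol gene Akr1b3 and the citrate synthase gene Cs, among the most abundant of their lists, were not past 2-fold between subsets.

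One enzyme gene of the phosphoglycerate branch moved with the erythroid genes. Bpgm, which makes 2,3-bisphosphoglycerate in red cells, was 8.47 and 8.58 in T1DM, 7.82 and 7.85 in T2DM and between 8.07 and 8.11 in CT, Ly6Chigh and Ly6Clow MCs alike. Hbb-bs had the same order, at 14.20 and 13.93 in T1DM, 13.07 and 13.08 in T2DM and 13.33 to 13.62 in CT. The log2FC of Bpgm (T2DM minus T1DM) was -0.69, with an adjusted p of 0.0131 from limma, and passed neither threshold of a call. The part of erythroid RNA in the Bpgm values was not tested.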

How the data were processed

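The sources name Kallisto 0.45 (pseudoalignment), R 3.6.1 with its package tximport 1.12.3 (gene summaries) and the mm10 build. The authors deposited 1 table of normalized log2 values for 16486 genes and 8 libraries; its scaling is not given in the sources used here, and counts were not used. If the libraries of each sequencer had been centred gene by gene, a difference shared by both models against CT would be reduced. Groups follow the labels. limma 3.58.1 (R 4.3.3, eBayes with trend) was fitted to all genes with Benjamini-Hochberg adjustment, and calls required an adjusted p below 0.01 together with an absolute log2FC above 1. The fit over all mouse groups had terms for mouse group and subset, and none for a subset effect that differs between mouse groups. The fit for the difference of the subset effect took T1DM and T2DM together, so its spread takes in their difference. Differences with 1 library on a side were counted past 2-fold without a test. The member list and the pathway and marker lists were chosen with earlier results of these data known. Named were the members, other list genes called or past 2-fold or most abundant, and copies. A few further list genes were named outside this rule, among them Sdhb, Nr4a1, Cx3cr1 and Cebpb. The fits were tested on simulated data. Promoters came from RefSeq, and shared 31-base sequences from the GENCODE transcripts in the reference.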

Additional observations from a re-analysis of the deposited data

Results flagged for a closer look

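Pgd had both T1DM libraries below and both T2DM libraries above the CT libraries of their subset, with a T2DM minus T1DM log2FC of 0.77. The opposite sides were not tested as a difference. This pattern was found in 1 of 39 members (2.56%) and in 5.42% of all genes. Whether the table was centred on the libraries of each sequencer is not given in the sources used here and was not tested. Such centring, gene by gene, would by its construction place differing T1DM and T2DM values more often on opposite sides of CT. In 2.31% of all genes the 4 diabetic libraries lay on 1 side of CT.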

How the results depend on the processing

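In CT mice alone, 5 of 39 members were called between subsets, beside 581 of all genes (3.52%). Among the 12527 genes averaging 1 or more on the log2 scale, 8 of 38 members were called, 1 of them lower, beside 1089 genes (8.69%). Among the 7385 averaging 4 or more (chosen after seeing the data), 8 of 31 were called, 2 of them lower, beside 884 genes (12%). At an adjusted p below 0.05, 10 of 39 were called, 2 of them lower, beside 1936 of all genes (11.7%). With eBayes without trend 0 members and 0 genes were called. Leaving out each CT library gave 0 to 0 members. With the replicate block 0 members and 0 genes were called; the CT replicate numbers did not deviate together (correlation 0.00892 over genes), so the samples share only a number. Over all mouse groups 7 to 11 members were called under the alternatives run, beside 9.14% to 16.9% of all genes. With 1 library left out 8 to 10 were called, beside 9.14% to 10.5%. Pfkm lost its call when any of the 8 libraries was left out. Hk2 and Slc2a3 lost theirs without the trend, and G6pdx and Pkm, at 0.92 and 0.85, with quantile normalization. Between T2DM and T1DM, and for the diabetic effect and its difference between subsets, 0 members were called under the alternatives run. With 1 added on the linear scale, members past 2-fold in Ly6Clow MCs were 1 for T2DM minus T1DM, beside 7.9% of all genes. They were 0 for T1DM minus CT, beside 2.81%, and 1 for T2DM minus CT, beside 4.22%. Leaving out 1 CT library gave 4 to 7 for T1DM minus CT in Ly6Chigh MCs, beside 13.2% to 13.7% of all genes. It gave 1 to 3 in Ly6Clow MCs, beside 11.2% to 11.6%, and 0 to 4 for T2DM minus CT in Ly6Clow MCs, beside 12.8% to 13.3%. Of the members' values recomputed under the alternatives (members at an unadjusted p below 0.05 or past 2-fold in a comparison), none changed sign, but without the T2DM Ly6Chigh library the members' median turned from 0.03 to -0.06 for the diabetic effect (-0.03 with quantile normalization and -0.01 without CT Ly6Chigh replicate 2) and from 0.16 to -0.08 for its difference between subsets. The cause of these shifts was not tested. With 1 or 2 libraries a group and no counts, differences near the spread of the CT duplicates could not be resolved.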
